A study of Rattus norvegicus with 31 samples.

Results

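The livers described here came from 4 female Wistar rats (Crl:WI) given the binary mixture of imazalil and clothianidin (IMZ + CTD) by daily oral gavage for 28 days, at 46 mg IMZ and 135 mg CTD per kg bw per day. They were compared with 8 female rats given the vehicle, aqueous carboxymethyl-cellulose, over the same period. The comparison covered 19904 of the 26312 genes in the count table, those with at least 2 reads summed over all 31 libraries. Young adult rats had been allocated at random to the study's dose groups, and total RNA of frozen liver pieces was sequenced for the controls and the high dose groups alone, 7 groups in all. Other groups enter only for single contrasts. They include IMZ alone at 93 mg/kg bw/day (4 rats) and CTD alone at 288 mg/kg bw/day (3 rats). Thiacloprid plus clothianidin (THI + CTD) was given at 54 and 134 mg/kg bw/day (4 rats). The IMZ + CTD mixture therefore held lower doses of IMZ and CTD than the groups given each compound alone. Values of thiacloprid alone (THI) and of thiacloprid plus imazalil (THI + IMZ) are given for Per1 and Dbp only. These were also high dose groups of 4 rats each, with THI + IMZ at 54 and 46 mg/kg bw/day. Each library stood for 1 rat, the rats are numbered as in the labels, and the sources used here give neither the time of day of sacrifice nor a sequencing batch.

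IMZ is an imidazole fungicide that blocks fungal lanosterol 14-alpha-demethylase, and CTD is a neonicotinoid insecticide that acts on nicotinic acetylcholine receptors of insects. Hepatocytes sense many foreign compounds through the constitutive androstane receptor (CAR) and the pregnane X receptor (PXR), which switch on cytochrome P450 genes of the Cyp2b and Cyp3a families, conjugating enzymes and export pumps. CAR activators are also known to drive hepatocytes of rodents into the cell cycle. The liver keeps its own circadian clock, in which CLOCK and BMAL1 switch on Per, Cry and Nr1d genes, whose products feed back on that pair, and PAR bZIP factors carry the rhythm to genes of metabolism.

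The IMZ + CTD libraries held 31919858 to 36626745 counted reads and the control libraries 32726300 to 101230067. The 10 most abundant genes took 27.7 to 31.6% of the reads in the mixture group and 26.7 to 30.6% in the controls. None of the 14 measured hepatocyte markers passed the test (median log2-fold change -0.05), and their summed level was 216290 to 273097 CPM (counts scaled to library size) in the mixture livers and 207564 to 271700 CPM in the controls. No member of the marker lists of 9 other cell types passed with edgeR either, while DESeq2 called 1 hepatocyte, 1 T or NK cell, 1 B or plasma cell and 1 neutrophil marker. In bulk liver, fewer cells of a type and less RNA per cell cannot be told apart.

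In total, 290 genes (1.46% of those tested) were differentially expressed (DEGs) between IMZ + CTD and control at an adjusted p under 0.05 (edgeR quasi-likelihood test with Benjamini-Hochberg adjustment). Of these, 200 genes (1.00%) were up-regulated, with a median log2-fold change of 1.68, and 90 genes (0.452%) were down-regulated, with a median of -0.53. The median over all genes tested was -0.03. An absolute log2-fold change above 1 was reached by 149 of the up-regulated and by 19 of the down-regulated genes. In 156 DEGs all 4 mixture rats lay above all 8 controls, in 57 all lay below, and in 77 the groups overlapped; over all genes tested, 2.62% did not overlap. The unadjusted p was under 0.05 for 2557 genes (12.8%). The number of DEGs depended on single mixture livers, with 98 without rat 3, 132 without rat 4, 161 without rat 2 and 366 without rat 1. With the share of uniquely mapped reads of each library as a covariate, 8 genes passed (Cyp2b1, Cyp2b2, Mme, Grin2c, Gstm1, Abcc3, Megf11 and Eif5b, the last chosen after its value was seen), with no cell division, PAR bZIP or clock repressor gene among them. The log2-fold changes with the covariate were -0.99 for Dbp, -0.73 for Tef, -0.93 for Hlf, -1.31 for Per1 and 2.14 for Cdk1, and the median of the cell division list was 1.48, against 2.29 without it. The share was higher in every library of this mixture than in every control library, and its part in the result cannot be told apart from the treatment.

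**Figure D1:**
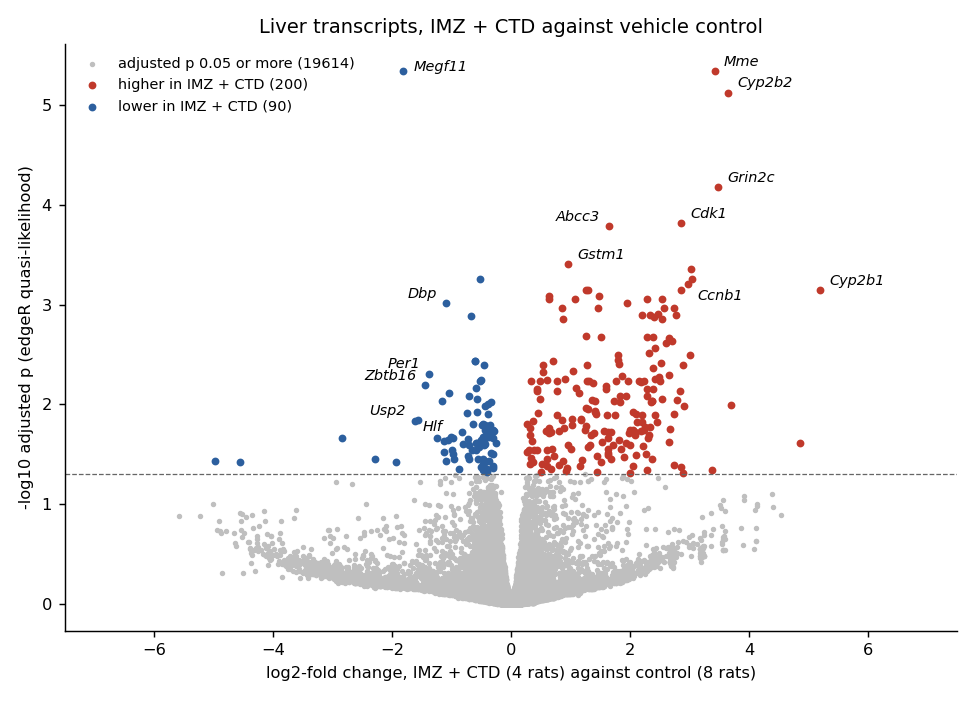
Log2-fold change of IMZ + CTD (4 rats) against control (8 rats) on the x axis and -log10 of the adjusted p on the y axis for the 19904 genes tested, each point 1 gene; the dashed line marks an adjusted p of 0.05. The 200 up-regulated genes extend to larger changes than most of the 90 down-regulated genes, and Cyp2b1, Cyp2b2, Grin2c and Mme lie farthest to the right among the labelled genes.

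The list with the highest count of DEGs was that of cell division. Of 31 measured members of that list, 30 were up-regulated and none was down-regulated, with a median log2-fold change of 2.29; the exception was Birc5, which encodes the survivin subunit of the chromosomal passenger complex (1.04 ± 0.37 (SE), adjusted p = 0.19). The members cover cyclins and their kinase (Ccnb1, Ccna2, Cdk1), spindle motors (Kif11, Kif20a, Kif23), kinetochore parts (Ndc80, Nuf2), checkpoint kinases (Bub1, Ttk) and the proliferation marker Mki67.

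Cdk1, the kinase that starts mitosis, stood at 2.15, 3.83, 8.02 and 4.59 CPM in mixture rats 1 to 4, against a lowest, median and highest control of 0.238, 0.688 and 0.801 CPM. All 4 rats lay above the controls, with a log2-fold change of 2.86 ± 0.39 (SE, 7.26-fold, edgeR adjusted p = 0.00015). Ccnb1, its cyclin partner, was at 2.18, 4.14, 6.99 and 4.21 CPM against 0.202 to 1.04 CPM in the controls (log2-fold change 2.97 ± 0.46, edgeR adjusted p = 0.00062). Kif20a, a kinesin of cytokinesis, was at 2.37, 6.33, 9.14 and 7.32 CPM against 0.587 to 1.6 CPM (2.78 ± 0.48, edgeR adjusted p = 0.0013). Among the genes with the largest rises were also Ckap2 (2.74 ± 0.46) and Ckap2l (2.86 ± 0.45), whose products bind spindle microtubules, and CDKN3 (3.01 ± 0.56), a phosphatase that acts on cyclin-dependent kinases. Cdca3, a trigger of mitotic entry, had a larger change (3.03 ± 0.45), but rat 1, at 0.554 CPM, stood below the highest control at 0.609 CPM.

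The mixture livers differed in how far these genes rose. Rat 3 had the highest value in 29 of the 31 genes and rat 1 the lowest in 30. The summed level of the 31 genes was 65.6, 116, 177 and 133 CPM in rats 1 to 4, and ranged from 18.4 to 43.4 CPM in the controls. The mean log2 difference from the control mean was 1.24, 2.07, 2.74 and 2.27 in the same order, and -0.59 to 0.65 in single controls, so that even rat 1 lay above them. All 4 mixture rats were above all 8 controls in 25 of the 31 genes. Without rat 3, 13 members passed the threshold, and without rats 1, 2 or 4, 30, 25 and 24 did. Top2a, the topoisomerase of replicated chromosomes, was at 8.24, 13.4, 21.6 and 17.98 CPM in rats 1 to 4 against 1.33 to 5.12 CPM in the controls.

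**Figure D2:**
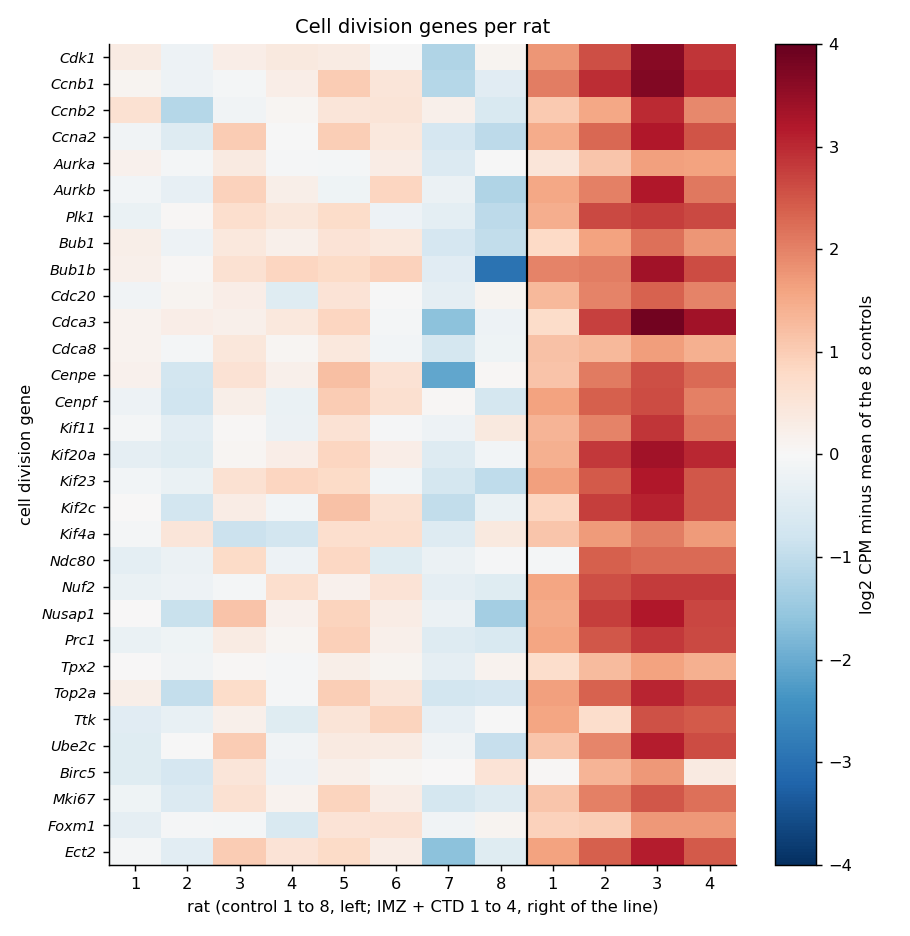
Log2 CPM minus the mean of the 8 controls (colour) for 31 cell division genes (rows) in each rat (columns, controls to the left of the line, IMZ + CTD to the right). The 4 columns on the right are red for nearly every gene, palest in rat 1 and darkest in rat 3.

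Families of related names, chosen after their values were seen, also held up-regulated members, though most of their members did not pass the threshold. Of 46 genes with histone symbols, 16 were up-regulated and none down-regulated, of 37 kinesin genes 10, of 16 genes of centromere proteins 5 and of 18 tubulin genes 5, in each case with no member down-regulated. Of these, 5 kinesin genes (Kif11, Kif20a, Kif23, Kif2c and Kif4a) and 2 centromere genes (Cenpe and Cenpf) are also in the cell division list. Histone genes have near-identical copies, and the study kept uniquely mapped reads, so the counts of single copies are uncertain.

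DNA replication changed in fewer members. Of 29 measured genes, 6 were up-regulated (Mcm3, Mcm5, Orc1, Orc6, Rrm2 and Fen1), none was down-regulated, and all 29 had a positive log2-fold change, with a median of 0.46. Rrm2, the regulated subunit of ribonucleotide reductase, was at 1.75, 1.87, 1.97 and 1.959 CPM against 0.109 to 0.575 CPM in the controls (log2-fold change 2.53 ± 0.53, edgeR adjusted p = 0.0087). A further identifier named RRM2 gave 5.29 to 9.85 CPM against 0.348 to 2.43 CPM (2.60 ± 0.47), and reads of these copies may be split between both. Mcm3, a subunit of the replicative helicase, rose by 1.24 ± 0.29 and the flap endonuclease Fen1 by 0.69 ± 0.17. Pcna, the sliding clamp, had a log2-fold change of 0.42 with an edgeR adjusted p of 0.09. In this list 1 gene passed without rat 3 or without rat 4, 2 passed without rat 2 and 3 without control 7, and 10 passed when the fit held both groups alone. Of 24 genes of G1 cyclins, their kinases and E2F factors, 2 were up-regulated, the kinase inhibitor Cdkn2c (1.5 ± 0.27, edgeR adjusted p = 0.0021) and E2f1 (1.26 ± 0.29, edgeR adjusted p = 0.017, and up to 0.16 without rat 3 or rat 4).

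Genes of DNA damage signalling and repair included 5 up-regulated members of 31 (median 0.41) and none that fell. Among them was Bard1 of recombination repair (2.20 ± 0.50), with rat 1, at 0.369 CPM, inside the control range of 0.0302 to 0.500 CPM. The others included Fanci of crosslink repair (1.43 ± 0.31), the exonuclease Exo1 (2.66 ± 0.64), listed at 0 in at least 1 control, and the histone H2afx (0.87). As background, several of these proteins are also made in S phase of undamaged cells. None of the 24 p53 targets measured passed the threshold (median -0.13), and 5 had an unadjusted p under 0.05; Cdkn1a, the p53-induced kinase inhibitor, had a log2-fold change of -0.55 and Mdm2, which ubiquitinates p53, of 0.04. DESeq2 called 7 repair genes and 2 p53 targets, 1 up and 1 down. Without rat 3 no repair gene passed the threshold and without rat 4 only 1 did.

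The drug-metabolizing cytochromes Cyp2b1, Cyp2b2 and Cyp3a23/3a1 rose. Of 23 measured phase I targets of CAR and PXR, 4 were up-regulated and none down-regulated, with a median of 0.20. Cyp2b1, the classical phenobarbital-inducible P450 of rat liver, was at 55.6, 8.12, 6.23 and 4.62 CPM in rats 1 to 4, and at 0.0302, 0.379 and 0.998 CPM in the lowest, median and highest control. Its log2-fold change was 5.20 ± 0.82 (36.6-fold, edgeR adjusted p = 0.00072), and rat 1, which had the lowest level of cell division genes, held several times the level of the others. Without rat 1 the log2-fold change was 3.64 (edgeR adjusted p = 0.012). Cyp2b2, its close relative, was at 93.8, 66.7, 82.5 and 63.4 CPM against 1.51 to 12.1 CPM (3.65 ± 0.43, 12.6-fold, edgeR adjusted p = 7.6e-06). The mixture rats lay above all controls in both. Since only uniquely mapped reads were counted, reads shared by this near-identical pair may be missing or split, and the levels are uncertain.

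Cyp3a23/3a1, a PXR target, rose by 2.28 ± 0.37 (edgeR adjusted p = 0.00089) at a low level, 0.953, 0.681, 0.353 and 0.706 CPM against 0.0609 to 0.247 CPM. A second identifier with that name in capitals was at 0.185 to 0.397 CPM against 0.030 to 0.170 CPM (1.68 ± 0.43). Aldh1a1, a retinaldehyde dehydrogenase, was at 172, 348, 219 and 262 CPM against 46.8 to 172 CPM (1.49 ± 0.24, edgeR adjusted p = 0.00082), with rat 1 just below the highest control. All 4 calls held when any 1 of the 4 mixture or 8 control rats was left out. Por, the electron donor of microsomal P450s, had a log2-fold change of -0.40 (edgeR adjusted p = 0.44), and Ephx1, microsomal epoxide hydrolase, of 0.72 (edgeR adjusted p = 0.14).

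**Figure D3:**
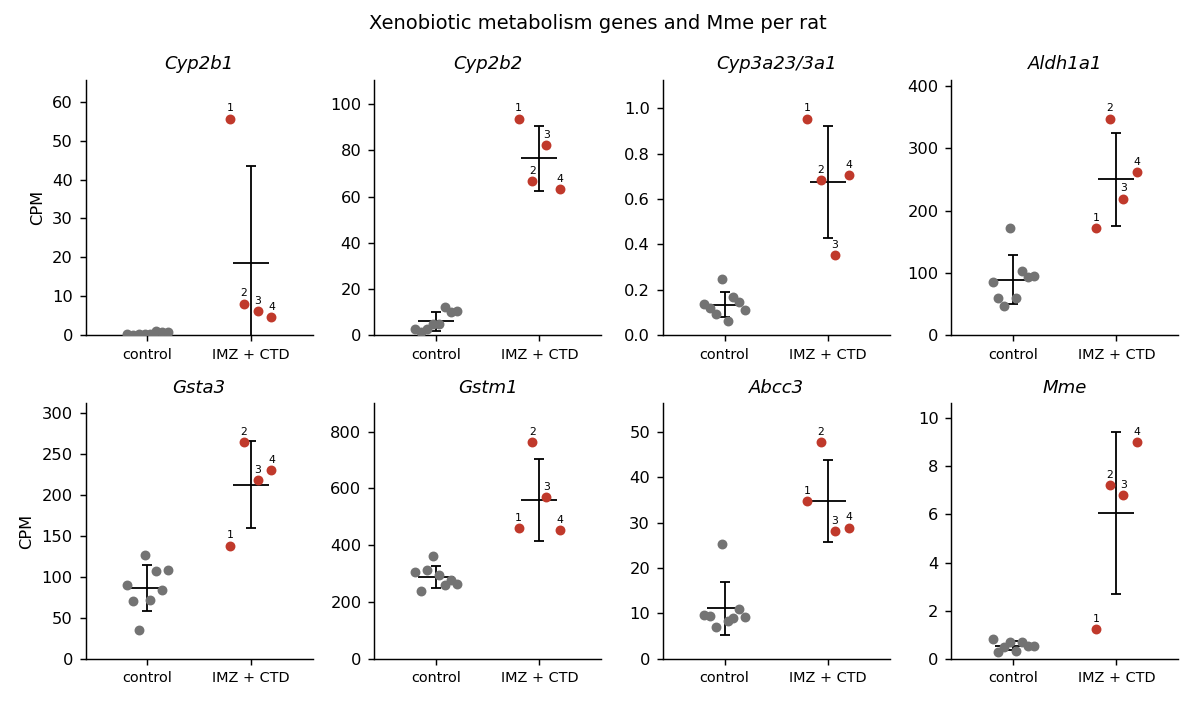
CPM of 8 genes (7 of xenobiotic metabolism and Mme) in the 8 control and 4 IMZ + CTD rats, each point 1 rat with the mixture rats numbered; horizontal bars give the mean and whiskers the SD (cut off at 0 for Cyp2b1), and each y axis starts at 0. Rat 1 is far above the other mixture rats for Cyp2b1 and below them for Mme.

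Among 33 conjugating enzymes, 2 were up-regulated (median 0.21). Gstm1 was at 459, 762, 569 and 453 CPM against 238 to 362 CPM (0.96 ± 0.14, edgeR adjusted p = 0.00039), and Gsta3 at 138, 265, 219 and 230 CPM against 35.0 to 126 CPM (1.30 ± 0.20, edgeR adjusted p = 0.00072). Both are glutathione S-transferases, and in both the groups were apart. Of 28 transporters 1 rose, Abcc3, which exports conjugates across the basolateral membrane, at 34.7, 47.7, 28.2 and 28.9 CPM against 6.97 to 25.2 CPM (1.65 ± 0.23, edgeR adjusted p = 0.00016). Control 4 gave that highest control value, and the next was 10.98 CPM. Of 28 sensing receptors and partners, 1 fell, Nr1i2, the gene of PXR itself (-0.37 ± 0.09, edgeR adjusted p = 0.037); the call was lost without mixture rat 2, 3 or 4 or control 4, 5 or 7 (adjusted p up to 0.20) and when the fit was limited to both groups. Nr1i3, the gene of CAR, had a log2-fold change of 0.61 (edgeR adjusted p = 0.34).

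None of 27 targets of the oxidative stress factor NRF2 passed the threshold with edgeR (median 0.17), with 7 at an unadjusted p under 0.05 and 2 called by DESeq2. Of 7 targets of the aryl hydrocarbon receptor 1 passed, Aldh3a1, at 0.123, 0.255, 0.676 and 0.353 CPM against 0 to 0.125 CPM, so that rat 1 was inside the control range (2.73 ± 0.60, edgeR adjusted p = 0.013, and 0.15 without rat 3), while Cyp1a1 and Cyp1a2, the inducible P450s of that receptor, had log2-fold changes of 0.41 and 0.07 and adjusted p of 0.83 and 0.92. Of 32 targets of the fatty acid receptor PPARA 1 passed, the pantetheinase gene Vnn1, at 3.84, 5.62, 3.0 and 6.26 CPM against 0.912 to 2.74 CPM (1.42 ± 0.30, edgeR adjusted p = 0.0092, and up to 0.073 without rat 2 or rat 4). The median of that list was -0.22.

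All 3 PAR bZIP genes and the clock repressor Per1 were down-regulated. The promoters of 3 clock genes are given first, because the clock factors act through short elements there: the E-box CACGTG bound by CLOCK and BMAL1, and the D-box TTATGTAA or TTACGTAA bound by PAR bZIP factors. The sequences are from RefSeq (GRCr8), 250 bases before to 50 after the annotated start, with matches on either strand in capitals. Tef (chr7:115206577-115206876, plus strand) holds an E-box match, Per2 (chr9:99496944-99497243, minus strand) a D-box match, and Dbp (chr1:105312006-105312305, plus strand) neither in this window.
Tef: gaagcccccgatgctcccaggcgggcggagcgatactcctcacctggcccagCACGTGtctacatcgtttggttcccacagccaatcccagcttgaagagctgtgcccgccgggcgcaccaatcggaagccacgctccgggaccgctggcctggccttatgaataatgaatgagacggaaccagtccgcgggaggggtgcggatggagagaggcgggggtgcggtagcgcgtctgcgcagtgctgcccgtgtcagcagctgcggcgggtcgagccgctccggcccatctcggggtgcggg
Per2: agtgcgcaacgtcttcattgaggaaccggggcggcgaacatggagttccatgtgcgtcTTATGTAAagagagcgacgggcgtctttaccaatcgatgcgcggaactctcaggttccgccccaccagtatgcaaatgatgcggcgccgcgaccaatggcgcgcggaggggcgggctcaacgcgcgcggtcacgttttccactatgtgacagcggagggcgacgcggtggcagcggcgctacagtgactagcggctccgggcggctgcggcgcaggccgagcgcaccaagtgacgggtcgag
Dbp: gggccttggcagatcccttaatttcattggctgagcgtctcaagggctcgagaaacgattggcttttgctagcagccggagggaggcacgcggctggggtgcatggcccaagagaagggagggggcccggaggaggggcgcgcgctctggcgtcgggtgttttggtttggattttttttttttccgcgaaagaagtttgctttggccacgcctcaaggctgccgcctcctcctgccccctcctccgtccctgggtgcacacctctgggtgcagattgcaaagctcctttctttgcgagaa
An E-box match was found in 6.42% and a D-box match in 1.01% of 33469 promoters of this length. Of the clock repressors, 9 of 10 had a promoter in the table, 3 with an E-box match (Ciart, Bhlhe40 and Bhlhe41) and 1 with a D-box match; of the PAR bZIP genes 2 of 3 had one, 1 with an E-box match; none of 5 activators held either.

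The PAR bZIP genes Dbp, Tef and Hlf, whose rhythmic products drive genes of drug and lipid metabolism, were all down-regulated. Dbp was at 2.43, 2.3, 2.76 and 2.86 CPM in rats 1 to 4 against 4.07, 5.42 and 7.58 CPM in the lowest, median and highest control (-1.09 ± 0.18, 2.14-fold lower, edgeR adjusted p = 0.00097). Hlf was at 3.38, 3.35, 2.82 and 3.50 CPM against 5.01 to 8.71 CPM (-1.0 ± 0.24, edgeR adjusted p = 0.021). Tef was at 18, 16, 16.5 and 22.1 CPM against 23.5 to 37.9 CPM (-0.73 ± 0.18, edgeR adjusted p = 0.033). All 4 mixture rats were below all 8 controls in each gene, and the mixture rats were close together. The call of Dbp held in all 12 fits that left out 1 rat; that of Hlf was lost without rat 2, 3 or 4 (adjusted p up to 0.12), and that of Tef without mixture rat 1, 2 or 3 or control 2 or 6 (up to 0.15).

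Among 10 clock repressors, 1 fell and 1 rose past the threshold, and 9 had an unadjusted p under 0.05 (median log2-fold change -0.71). Per1, a core repressor that also responds to glucocorticoids, was at 6.43, 3.92, 8.11 and 9.41 CPM against 9.99, 17.4 and 29.4 CPM (-1.38 ± 0.27, edgeR adjusted p = 0.0049). The groups did not overlap, although rat 4 was near the lowest control. Per2 was at 17.3, 7.32, 8.32 and 6.13 CPM against 20.2 to 39.5 CPM (-1.54 ± 0.42, edgeR adjusted p = 0.060), a larger change that missed the threshold with rat 1 apart from the others. Cry1 (-0.59 ± 0.18) and Cry2 (-0.44 ± 0.13) each had an edgeR adjusted p of 0.098, and the 4 mixture rats lay below all controls in Cry1 and Bhlhe41, the latter at 0.0308 to 0.0588 CPM. DESeq2 called 4 repressors down (Per1, Per2, Cry1 and Cry2).

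The nuclear receptors of the clock had higher values. Nr1d2 (REV-ERB beta) was at 5.41, 9.23, 6.38 and 8.12 CPM against 3.04 to 5.46 CPM (0.77 ± 0.17, edgeR adjusted p = 0.013, and up to 0.11 without rat 2 or rat 4), with rat 1 just inside the control range. Nr1d1 (REV-ERB alpha), at 1.26, 3.75, 0.617 and 2.70 CPM against 0.136 to 0.940 CPM, had a log2-fold change of 2.07 ± 0.59 and an edgeR adjusted p of 0.076. Per3 (-0.96 ± 0.36), Bhlhe40 (-0.38 ± 0.18), Bhlhe41 (-2.15 ± 0.71) and Ciart (-0.83 ± 1.06) did not pass (adjusted p 0.14 to 0.77).

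Among the activators, Arntl, the gene of BMAL1, was at 53.1, 52.7, 61.9 and 53.9 CPM against 51.3, 55.0 and 58.0 CPM in the controls (0.01 ± 0.06), and Clock at 21.7, 19.1, 19.6 and 20.6 CPM against 17.2 to 23 CPM (0.05 ± 0.10). Npas2, a CLOCK paralogue, had a log2-fold change of 0.27 ± 0.18, Rora of -0.16 ± 0.09 and Nfil3, a repressor at D-boxes, of -0.12 ± 0.11.

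**Figure D4:**
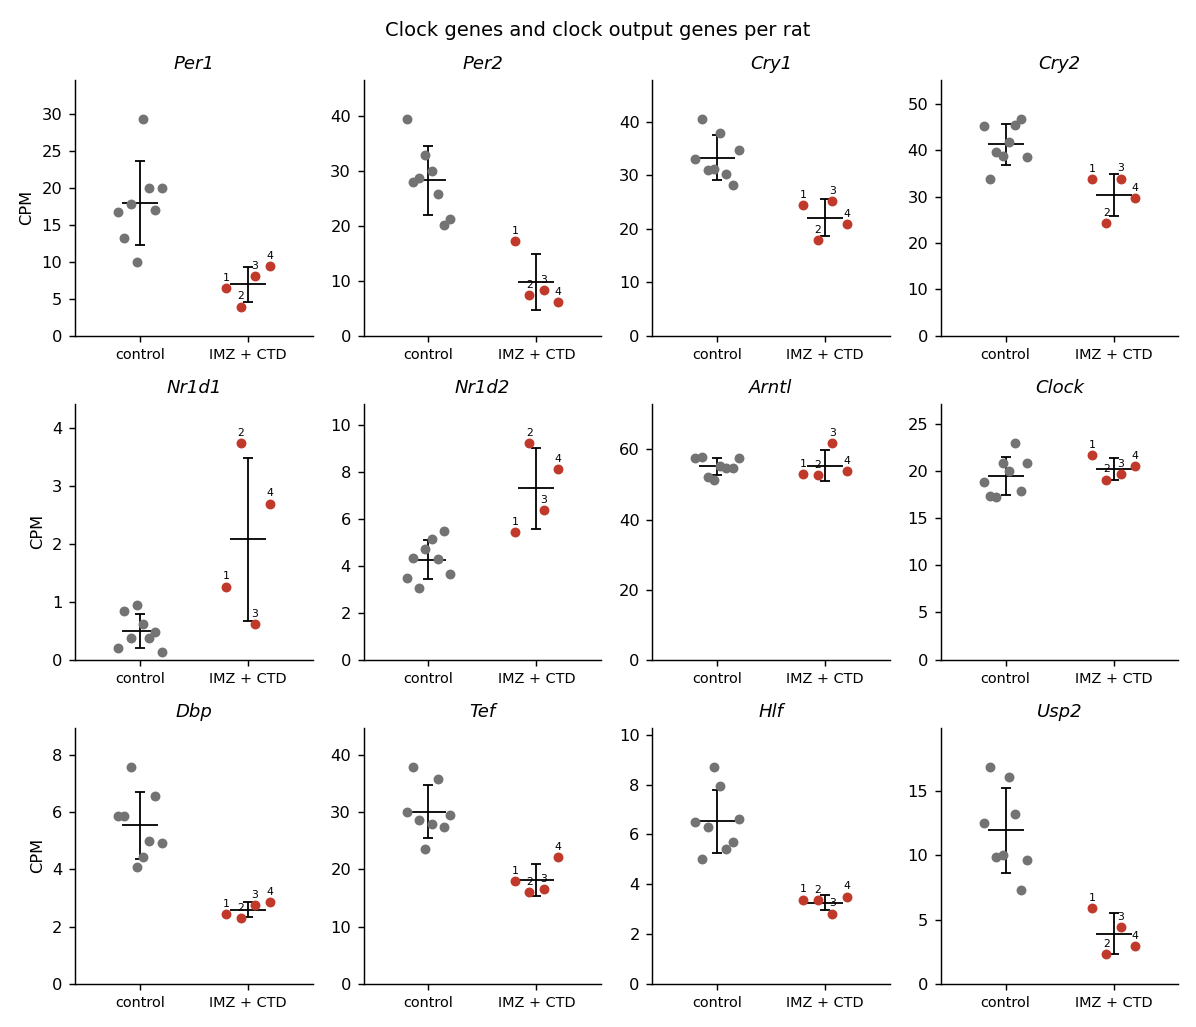
CPM of 12 clock and clock output genes in the 8 control and 4 IMZ + CTD rats, each point 1 rat with the mixture rats numbered; horizontal bars give the mean and whiskers the SD, and each y axis starts at 0. Per1, Per2, Cry1, Dbp, Tef, Hlf and Usp2 have all 4 mixture rats below all controls, Nr1d1 and Nr1d2 tend higher, and Arntl and Clock overlap.

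Of 33 rhythmic output genes of liver, 3 fell and none rose (median -0.22). Usp2, a deubiquitinase that cycles in liver, was at 5.91, 2.33, 4.41 and 2.92 CPM against 7.33, 11.3 and 16.9 CPM (-1.62 ± 0.36, edgeR adjusted p = 0.015, and up to 0.088 without rat 2, 3 or 4). Rgs16, a regulator of G protein signalling, varied widely in the controls, 24.2 to 226 CPM, and was at 11.7, 23.3, 11.9 and 26.6 CPM in the mixture livers, where rat 4 overlapped the lowest control (-2.29 ± 0.58, edgeR adjusted p = 0.035, lost without any 1 mixture rat or control 5 or 8, up to 0.16). Tsc22d3, the glucocorticoid-induced leucine zipper, was at 53.7, 36.8, 53.9 and 46.5 CPM against 56.4 to 112 CPM (-0.66 ± 0.16, edgeR adjusted p = 0.029, up to 0.17 without mixture rat 2, 3 or 4 or control 5, 6 or 8).

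Tsc22d3 and Per1 also belong to the list of 23 glucocorticoid-responsive genes, of which 3 fell and none rose (median -0.26). The third was Zbtb16, a zinc finger repressor, at 7.04, 3.72, 3.73 and 5.20 CPM against 9.19 to 17.6 CPM (-1.44 ± 0.29, edgeR adjusted p = 0.0065, and 0.057 without rat 3). Of the 23 genes, 5 had a positive value. Among those not past the threshold were Fkbp5 (0.05), Sgk1 (-0.09) and Tat (-0.18), and Pnmt, listed at 0 in all 4 mixture livers and in at least 1 control. Hsd11b1, whose enzyme regenerates active glucocorticoid in liver, was up-regulated (1.68 ± 0.39, edgeR adjusted p = 0.019); it is on none of the lists and was chosen after its value was seen.

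Some of the largest changes lay outside the lists described so far. Mme and Megf11 are among the genes that the study names for its mixtures, which it chose on these samples. Mme, the gene of the membrane peptidase neprilysin, was at 1.23, 7.21, 6.79 and 8.99 CPM against 0.271 to 0.830 CPM (3.42 ± 0.38, 10.7-fold, edgeR adjusted p = 4.6e-06). Grin2c, a subunit of the NMDA type of glutamate receptor, was at 1.51, 1.85, 1.59 and 2.83 CPM against 0.0244 to 0.289 CPM (3.48 ± 0.46, edgeR adjusted p = 6.7e-05). Megf11, a transmembrane protein with EGF-like repeats, had the lowest adjusted p of all genes tested, at 7.47, 4.03, 5.08 and 4.33 CPM against 12.9, 17.3 and 28.0 CPM (-1.81 ± 0.20, 3.52-fold lower, edgeR adjusted p = 4.5e-06). The groups were apart in each of these genes. The remaining genes named by the rule for the largest falls were RGD1308350 (-0.83 ± 0.19) and BC021891 (-0.80 ± 0.20), called neither without rat 3 nor without rat 4, and the second not without rat 2 (adjusted p up to 0.13 and 0.15).

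Transcripts of immune cells were lower in part. Igkc, the constant region of immunoglobulin kappa chains, was at 2.06, 3.01, 5.61 and 7.06 CPM against 10.2, 12.2 and 17 CPM (-1.56 ± 0.35, edgeR adjusted p = 0.014, and up to 0.083 without rat 1 or rat 2). The 10 measured markers of B and plasma cells summed to 1.88 to 6.61 CPM in the mixture group and 2.47 to 4.64 CPM in the controls, and none passed the threshold (median -0.66, 4 with a positive value). The highest sum was that of mixture rat 2, in which Fcrla was at 4.71 CPM, and Tnfrsf17, of plasma cells, was at 0 in all 4 mixture livers and at no more than 0.0154 CPM in the controls. Pstpip1, an adaptor of the cytoskeleton in leukocytes, was at 1.14, 0.539, 0.823 and 1.38 CPM against 1.66 to 2.84 CPM (-1.13 ± 0.27, edgeR adjusted p = 0.023, and up to 0.15 without mixture rat 2 or 3 or control 7). Chosen after their values were seen, the macrophage receptor Siglec1 (-1.0 ± 0.25) and the inflammasome sensor Nlrp3 (-0.71 ± 0.15) were down-regulated as well. Of 15 markers of Kupffer cells and macrophages none passed (median -0.25, 13 with a negative value), none was at 0, and their sum was 456 to 780 CPM against 599 to 969 CPM. The summed level of 10 neutrophil markers was 2.7 to 3.56 CPM, below the 3.79 to 7.07 CPM of every control, with Camp and Ngp at 0 in all mixture livers. Their mean log2 difference from the control mean overlapped, at -0.29, -0.01, -0.28 and -0.11 in rats 1 to 4 and -0.39 to 0.17 in single controls. Only 1 of the 10 markers had all mixture rats below all controls. The summed level of 15 T and NK cell markers was 22.3 to 25.3 CPM against 24.3 to 35.0 CPM. The part of cell numbers in these results was not tested.

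Interferon-stimulated genes had 1 member of 55 past the threshold, Bst2 (tetherin), at 35.8, 24.8, 26.4 and 19.9 CPM against 34.1 to 49.2 CPM (-0.56 ± 0.14, edgeR adjusted p = 0.035, up to 0.21 without mixture rat 2, 3 or 4 or control 3, 5, 6 or 7). The list's median was -0.23, and 20 members had an unadjusted p under 0.05. The response element GAAANNGAA, on either strand, was found in 25 of the 43 promoters of this list in the table and in 9.71% of all promoters. Of 23 acute phase proteins 1 fell, Itih3, a hyaluronan-binding inhibitor heavy chain, at 4857, 4182, 4548 and 4453 CPM against 5238 to 6102 CPM (-0.31 ± 0.07, edgeR adjusted p = 0.022, up to 0.11 without rat 2, 3 or 4). Of 29 genes of elastic fibres, smooth muscle and matrix 1 fell, elastin (Eln, -1.10 ± 0.28, edgeR adjusted p = 0.037), a call lost without mixture rat 1, 2 or 4 or without control 1, 3, 5, 6, 7 or 8 (adjusted p up to 0.18).

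Central metabolism showed no called change in the lists examined. None of 22 genes of bile acid synthesis (median -0.03), 26 of cholesterol synthesis and uptake (-0.21), 26 of lipogenesis (-0.17), 22 of gluconeogenesis and fasting (-0.17), 21 pericentral (0.07) or 21 periportal genes (-0.18) passed the threshold with edgeR; 3, 4, 2, 4, 2 and 8 of them had an unadjusted p under 0.05, and DESeq2 called 0, 1, 0, 1, 0 and 2. Over all genes tested, 12.8% had an unadjusted p under 0.05. The periportal list had the largest share of these 6 lists, 8 of 21, and 4 of its 21 genes had a positive log2-fold change. Cyp51, the mammalian counterpart of the fungal target of IMZ, was at 498, 402, 556 and 429 CPM against 358 to 629 CPM (-0.06 ± 0.14). Cyp7a1, the rate-limiting enzyme of bile acid synthesis, was at 46, 70.03, 203 and 29.7 CPM against 81.9, 281 and 385 CPM, with overlap through rat 3 (-1.43 ± 0.52, edgeR adjusted p = 0.19). Likewise none passed among genes of antigen presentation (25), stress of the endoplasmic reticulum (26), the growth hormone axis (22), thyroid hormone handling (15) and immediate early response (26), of which 3, 3, 2, 6 and 2 had an unadjusted p under 0.05 and 0, 1, 1, 2 and 0 were called by DESeq2.

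Of 19 genes that the study names for its mixtures, 6 were up-regulated and 6 down-regulated, and all 19 had an unadjusted p under 0.05. The study chose them on these samples, so the count is no independent evidence of their direction. Among those not past the threshold were Cyp7a1, Cry1, Cry2, Ky (a peptidase known from muscle, -0.86 ± 0.29), Tlr7 (a receptor of viral RNA, -0.80 ± 0.31) and Sema4a (a semaphorin, -0.50 ± 0.15), with edgeR adjusted p from 0.098 to 0.23.

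The values of other groups are given beside those of IMZ + CTD; all share the 8 controls. Against them, 50 genes (0.251%) were called with IMZ, 2518 (12.7%) with CTD and 873 (4.39%) with THI + CTD. In the cell division list, the median log2-fold change was 1.40 with IMZ (none of 31 called), 2.94 with CTD (31 up) and 1.98 with THI + CTD (29 up), beside 2.29 with IMZ + CTD. Cyp2b1 had log2-fold changes of 8.28 with IMZ, 7.13 with CTD and 8.78 with THI + CTD, beside 5.20 with IMZ + CTD. Dbp stood at -0.14, -0.11 and -0.10, Hlf at -0.11, 0.02 and 0.32 and Tef at -0.08, -0.27 and -0.12 in the same order, none of them called, beside -1.09, -1.0 and -0.73 with IMZ + CTD. Per1 was called with CTD (-0.96), with THI alone (-1.45) and with THI + IMZ (-1.12), and not with IMZ (-0.11) or THI + CTD (-0.81). With THI alone and with THI + IMZ, Dbp stood at -0.58 and -0.49, neither of them called.

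**Figure D5:**
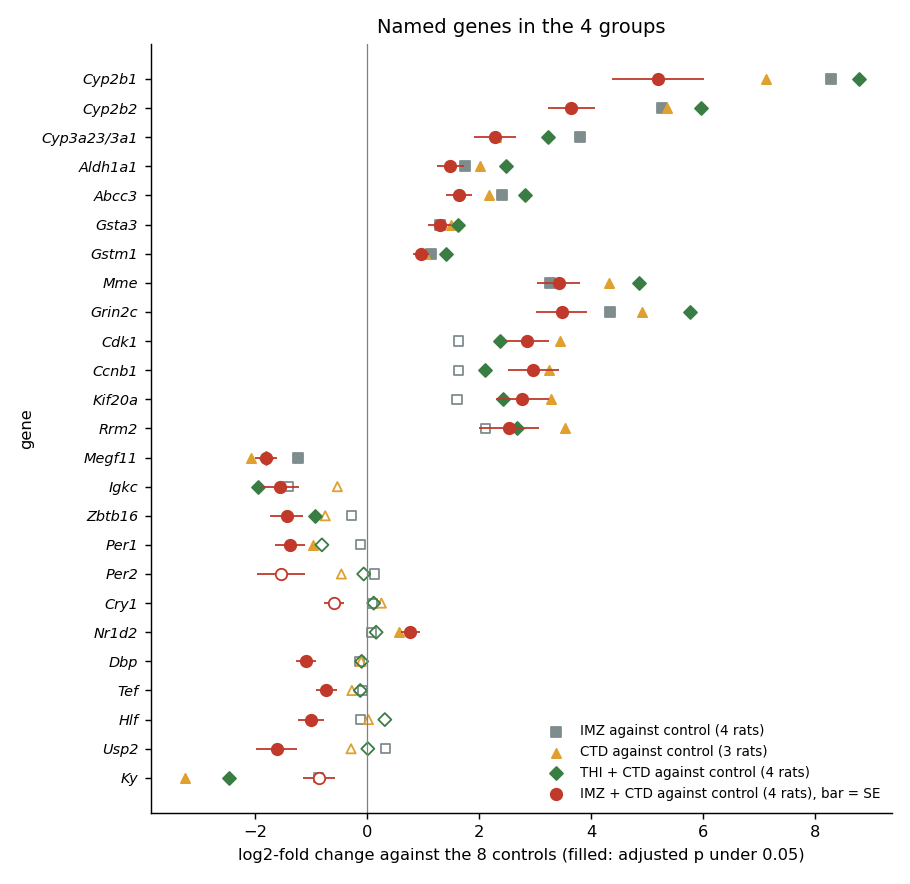
Log2-fold change against the shared 8 controls (x axis) of 25 named genes (rows) in the IMZ, CTD, THI + CTD and IMZ + CTD groups; filled symbols have an adjusted p under 0.05 and bars give the SE for IMZ + CTD. Red circles lie left of the other groups for Cyp2b1, Cyp2b2, Cyp3a23/3a1, Aldh1a1, Abcc3, Gsta3, Gstm1 and Grin2c. They also lie left for Zbtb16, Per1, Per2, Cry1, Dbp, Tef, Hlf and Usp2. The circle nearly meets the symbol of CTD for Cyp3a23/3a1 and that of IMZ for Gsta3. For the cell division genes the red circles lie among the other groups.

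A direct contrast of IMZ + CTD with THI + CTD, mixtures with nearly the same dose of CTD, used no control. It called 35 genes (0.176%), 11 higher and 24 lower in IMZ + CTD; 2065 had an unadjusted p under 0.05. Of these 35, 4 were DEGs of IMZ + CTD: Grin2c, Dbp, Hlf and Slc25a10. Dbp was at 6.22, 4.48, 5.32 and 4.63 CPM in THI + CTD rats 1 to 4, above all IMZ + CTD rats (-1.0 ± 0.20, edgeR adjusted p = 0.027). Hlf was at 5.01, 10.2, 10.1 and 7.29 CPM (-1.32 ± 0.27, edgeR adjusted p = 0.027) and Grin2c at 7.52, 9.77, 8.73 and 12.0 CPM (-2.29 ± 0.44, edgeR adjusted p = 0.024). Slc25a10, the mitochondrial dicarboxylate carrier, differed by -0.42 ± 0.09 (edgeR adjusted p = 0.040). Tef (-0.61 ± 0.21) and Per2 (-1.48 ± 0.46) did not pass (adjusted p 0.25 and 0.22).

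Drug metabolism differed between these mixtures in 1 of 23 CAR and PXR targets, Por, at 213 to 272 CPM with THI + CTD and 82.3 to 121 CPM with IMZ + CTD (-1.24 ± 0.24, edgeR adjusted p = 0.027). Cyp2b2, at 272 to 525 CPM with THI + CTD, differed by -2.31 ± 0.51 (edgeR adjusted p = 0.052) and Cyp2b1, at 77.3 to 403 CPM, by -3.59 ± 0.90 (edgeR adjusted p = 0.094). Of 32 PPARA targets 3 were lower in IMZ + CTD, and of 27 NRF2 targets 1, Gclm of glutathione synthesis (-0.59 ± 0.12, edgeR adjusted p = 0.027). Ky was the study-named gene that was higher (1.6 ± 0.34, edgeR adjusted p = 0.035). No cell division gene differed (median 0.25, Cdk1 0.48 ± 0.45), which does not show that the mixtures act alike. The calls of Dbp and Hlf were lost in 7 and 6 of 16 fits that left out 1 rat (adjusted p up to 0.11 and 0.13), and those of Grin2c, Ky, Slc25a10, Por and Gclm in 5, 7, 8, 6 and 6, each time a rat of one of the mixtures. Only the fits without 1 of the 4 rats of either mixture removed values that this contrast compares. The rest left out 1 of the 8 controls, which enter it only through the shared fit. Slc25a10 lost its call without any 1 of the mixture rats. Without THI + CTD rat 2, 3 genes were called in all, and without THI + CTD rat 3, 8. Without IMZ + CTD rat 1, 2, 3 or 4, 18, 9, 9 and 8 were called.

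The study set the mixture against the single compounds with weights for dose. The same weights, 0.5 for the log2-fold change with IMZ and 0.47 for that with CTD, gave a sum from which the IMZ + CTD change differed in 230 genes (1.16%), 138 higher and 92 lower; 2841 had an unadjusted p under 0.05. Of the 230, 19 were DEGs of IMZ + CTD. No member of the cell division or CAR and PXR lists was among the 230 genes (median difference 0.24 and -0.34). Dbp lay below the sum by a difference of -0.97 ± 0.18 (edgeR adjusted p = 0.0057), Usp2 by -1.65 ± 0.37 (edgeR adjusted p = 0.021), Cry1 by -0.76 ± 0.18 (edgeR adjusted p = 0.033) and Hlf by -0.96 ± 0.24 (edgeR adjusted p = 0.042). The lowest adjusted p among the DEGs belonged to Eif5b, a translation initiation factor chosen here after its value was seen, which fell with IMZ + CTD (-0.52 ± 0.08), rose with CTD (0.45) and lay -0.65 ± 0.08 off the sum (edgeR adjusted p = 2.0e-05). Dbp and Eif5b kept their calls in all 19 fits that left out 1 rat, while Hlf, Usp2 and Cry1 lost theirs in 7, 4 and 6 (adjusted p up to 0.14, 0.10 and 0.13), which included those without IMZ + CTD rat 2, 3 or 4 and without CTD rat 2. The 19 fits include those without 1 of the 8 controls, which carry little weight in this contrast. Without IMZ + CTD rat 2, 3 or 4, 79, 80 and 66 genes lay off the sum, and without IMZ rat 3, 150. With the covariate of uniquely mapped reads 2 genes lay off the sum, none of them named here.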

How the data were processed

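Total RNA of 31 rat livers (7 groups) was sequenced from stranded libraries, and the 4 IMZ + CTD and 8 control livers are the subject here. The authors trimmed reads, mapped them and counted them per gene with STAR 2.5.2b on the rat genome Rnor_5.0 and kept uniquely mapped reads. FastQC 0.11.5 and DESeq2 1.15.1 are also in the submitters' processing notes. The annotation release is not given in the sources used here. The deposited raw counts per gene were used; the deposited normalized table, a signal per gene, was checked to be those counts divided by DESeq2 size factors (largest relative deviation 5.3e-15) and not used further. Genes with a count sum of at least 2 over the 31 libraries were kept (19904 of 26312; 17144 with a symbol, 2760 with an identifier only). They were fitted with edgeR 4.0.16 (quasi-likelihood, TMM scaling, R 4.3.3) as 1 model of all 31 libraries with 7 group terms, and two-sided p-values were corrected with the Benjamini-Hochberg method across the genes tested, at a threshold of 0.05. CPM values are scaled by TMM and not by gene length, so levels are compared between rats and not between genes; log2 CPM in the plots used a prior count of 2. The spread is that between rats; a few counts lie behind each value of genes under 0.1 CPM, at 31919858 to 101230067 counted reads per library.

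The members, the 32 pathway and 10 cell type lists and the tests were chosen with earlier results of these data known. Genes named are the 10 largest rises and 10 largest falls (symbol given, adjusted p under 0.05, average log2 CPM above 0, no overlap of the groups), up to 4 members per pathway list past the threshold by smallest p, all members of the 3 clock lists, the genes the study names for its mixtures, and the genes said in the text to have been chosen later. The fitting script was tested on simulated counts. DESeq2 1.42.0 was 1 of the alternatives. Replicate numbers did not pair the rats (correlations of deviations of same-numbered rats -0.02, 0.08, 0.11 and -0.16 over 11250 genes). Some genes that these rules name are not reported here.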

Additional observations from a re-analysis of the deposited data

Results flagged for a closer look

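The highest or lowest rat of each group was compared with the rest of its group, on log2 CPM, for the 66 named genes in the 4 IMZ + CTD and the 8 control livers (132 groups of values). Chance marks about 1 in 20 groups, and 11 were marked. Each of them is a single rat set apart relative to the range of its group, so a small gap can be marked in a tight group. The log2 gap to the next rat was 0.20 for Arntl and 0.28 for Rora. In IMZ + CTD, Mme was lowest in rat 1 at 1.23 CPM, with the next rat at 6.79 CPM. Ckap2l was highest in rat 3 at 3.20 CPM, with the next at 1.78 CPM. Arntl was highest in rat 3 at 61.9 CPM, with the next at 53.9 CPM. Ciart had reads in rat 2 only, at 0.114 CPM. Among the controls, the lowest value stood apart for Cyp2b1 in control 2 (0.0302 CPM), Cdk1 in control 7 (0.238 CPM), Cdca3 in control 7 (0.0733 CPM), Gsta3 in control 3 (35.0 CPM), Npas2 in control 2 (7.57 CPM) and Rora in control 3 (17 CPM). The highest value stood apart for Abcc3 in control 4 (25.2 CPM).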

How the results depend on the processing

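The number of DEGs (290, with 200 up and 90 down) was within 1.5 times of that value with DESeq2 size factors, filterByExpr, no filter on low counts, a fit of the groups compared alone, the newer quasi-likelihood method and counts thinned to the smallest library. The DESeq2 Wald test called 595 genes (350 up, 245 down), 189 against THI + CTD and 614 off the dose-weighted sum. With filterByExpr 391 genes lay off that sum, and 103 differed from THI + CTD when the fit held both groups alone. Adjusting for how many reads of each library mapped uniquely gave 8 called genes (6 up, 2 down), 2 off the sum, 0 cell division genes, 2 CAR and PXR targets and 0 PAR bZIP genes. With the replicate block 80 genes were called (57 up, 23 down), with 12 cell division genes and 1 PAR bZIP gene; the rats share only a number, so these fits are not paired. Leaving out 1 rat at a time gave 98 to 366 DEGs (76 to 238 up, 22 to 128 down), 3 to 40 genes against THI + CTD, 66 to 285 off the sum, 13 to 30 cell division genes and 1 to 3 PAR bZIP genes, while all 4 CAR and PXR calls held. The sign turned for Arntl (-0.015 with the covariate, -0.052 to 0.028 without 1 rat) and for Clock (-0.0017 with the covariate), neither of them called. The cause of these differences was not tested, apart from fewer rats or genes in the fit. Of the fits of the 66 named genes that left out 1 rat, 698 gave the same call, 89 lost it and 2 gained it. The fits that left out a THI + CTD, IMZ or CTD rat were chosen after seeing the data. Libraries of the mixture group were shallower than most control libraries, which limits genes of few counts.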

Other observations

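Genes of low level with large changes lay outside the lists and were chosen after their values were seen. Gdnf, a growth factor of neurons and kidney, had a log2-fold change of -2.84 (edgeR adjusted p = 0.021), Lcn3, a lipocalin, of -4.55 (edgeR adjusted p = 0.038) and Nxf2, a nuclear RNA export factor, of 4.85 (edgeR adjusted p = 0.024). Fitted changes of genes with counts near 0 depend on the prior count and are no bounds. The 92 genes that lay below the dose-weighted sum included Eif5b, Esf1 (-0.73 ± 0.11), the ribosome-associated chaperone gene Dnajc2 (-0.49 ± 0.10) and Ero1l, an oxidase of the endoplasmic reticulum (-0.52 ± 0.10). These genes were also chosen after their values were seen, and no shared function was tested. Of the 26 listed genes of endoplasmic reticulum stress, 0 lay off the sum.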
